A study of Mus musculus with 8 samples.

Results

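The genes described here were 9 genes chosen by name and called output genes of the circadian clock: Dbp, Tef, Hlf, Nfil3, Bhlhe40, Bhlhe41, Usp2, Rora and Npas2. Npas2 and Rora also encode parts of the clock loop itself. The expression of Npas2 was not analysed here. Of the 9 genes, the other 8 had 1 probe set each, named for that gene alone in the array's annotation. They were part of 19938 genes measured in mouse liver on 8 microarrays, in units of log2 intensity. In 4 samples (deleted) Hmgb1, which encodes an abundant chromatin protein, had been removed by Cre recombinase under the Albumin promoter, which is active in hepatocytes. The other 4 (control) came from male littermates, 8 weeks old like the deleted mice, whose Hmgb1 alleles were floxed, the labels naming no Cre. Cre and the loss of Hmgb1 therefore cannot be told apart.

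The labels disagree on the source of the RNA: the protocol states whole liver on a C57Bl/6 background, whereas the characteristics state liver stellate cells and Balb/c. For every sample 5 backcrosses are recorded. Alb, the hepatocyte product albumin, gave log2 intensities of 13.26 to 14.03. The mice lived on a 12-hour light-dark cycle with food always available, and no label gives the hour at which livers were taken. No label ties the arrays to separate animals, and the spread behind each p-value is that between arrays, which may be technical. Hmgb1 was lower in the deleted group, with a log2 fold change of −0.91 (limma, SE 0.14, adjusted p = 0.0216). That call was lost with all probe sets tested and without deleted 3 or 4 or control 3 or 4 (limma adjusted p 0.0561 to 0.0797). The Hmgb1 probe set was dim, at 5.35, 5.42, 5.45 and 5.78 on controls 1 to 4 and 4.91, 4.20, 4.53 and 4.74 on the deleted arrays. All lay below 6.14, the median over probe sets. A dim probe set responds little to a change in RNA, so the size of the loss cannot be read from it. Over all genes 138 passed an adjusted p of 0.05 with limma, 59 higher and 79 lower in the deleted livers. This split turned to 153 higher and 111 lower after quantile normalization again, and to 33 and 28 with arrays centred on their medians. Control 1 stood apart from the other arrays, with a score of 26.6 along the leading principal component (37.6% of variance), where the other 7 scored −11.7 to 11.4. The count of genes past the threshold was 321 without control 1 and 37 to 98 without any other single array.

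In the clock of each cell the activators CLOCK, NPAS2 and BMAL1 (gene Arntl) bind E-box sequences and switch on their own repressors, the PER and CRY proteins, so that activity rises and falls each day. The same E-boxes drive output factors. DBP, TEF and HLF, the PAR bZIP proteins, activate genes through D-box sequences, and NFIL3 represses through the same D-boxes. BHLHE40 and BHLHE41 compete for E-boxes as repressors. ROR-alpha activates through ROR elements, where the REV-ERB proteins (genes Nr1d1 and Nr1d2) repress. USP2 is a deubiquitinase whose mRNA follows the clock in many tissues, liver among them. In liver these factors set daily rhythms of detoxification, lipid and bile acid genes, and the mRNAs of several of them, Dbp above all, themselves swing with the hour of the day.

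Of the 8 measured output genes 0 reached an adjusted p of 0.05 with limma, in a comparison in which 0.692% of all genes did (0.296% higher, 0.396% lower). At an unadjusted p of 0.05, 4 of 8 were past it, against 9.46% of all genes. That count was 2 without deleted 2, 6 without control 1 and 6 with array weights estimated by limma. Bhlhe40, Usp2 and Dbp were those with lower means in the deleted livers (4.53% of all genes) and Nfil3 the 1 with a higher mean (4.93%). The groups did not overlap for 1 of 8, Usp2, which was lower, as were 2.3% of all genes, while a further 3.28% did not overlap and were higher. The mean was lower in the deleted livers for 6 genes and higher for 2, with a median log2 fold change of −0.19 against 0.0 over all genes tested. Over all genes 10132 had lower and 9806 had higher means. Without control 1, Dbp and Bhlhe40 passed (2 of 8, against 1.61% of all genes). The output genes and the lists below were chosen with earlier results of these data known. Their shares beside those of all genes therefore only describe them. In bulk tissue, fewer cells of a type and less RNA per cell cannot be told apart.

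**Figure D1:**
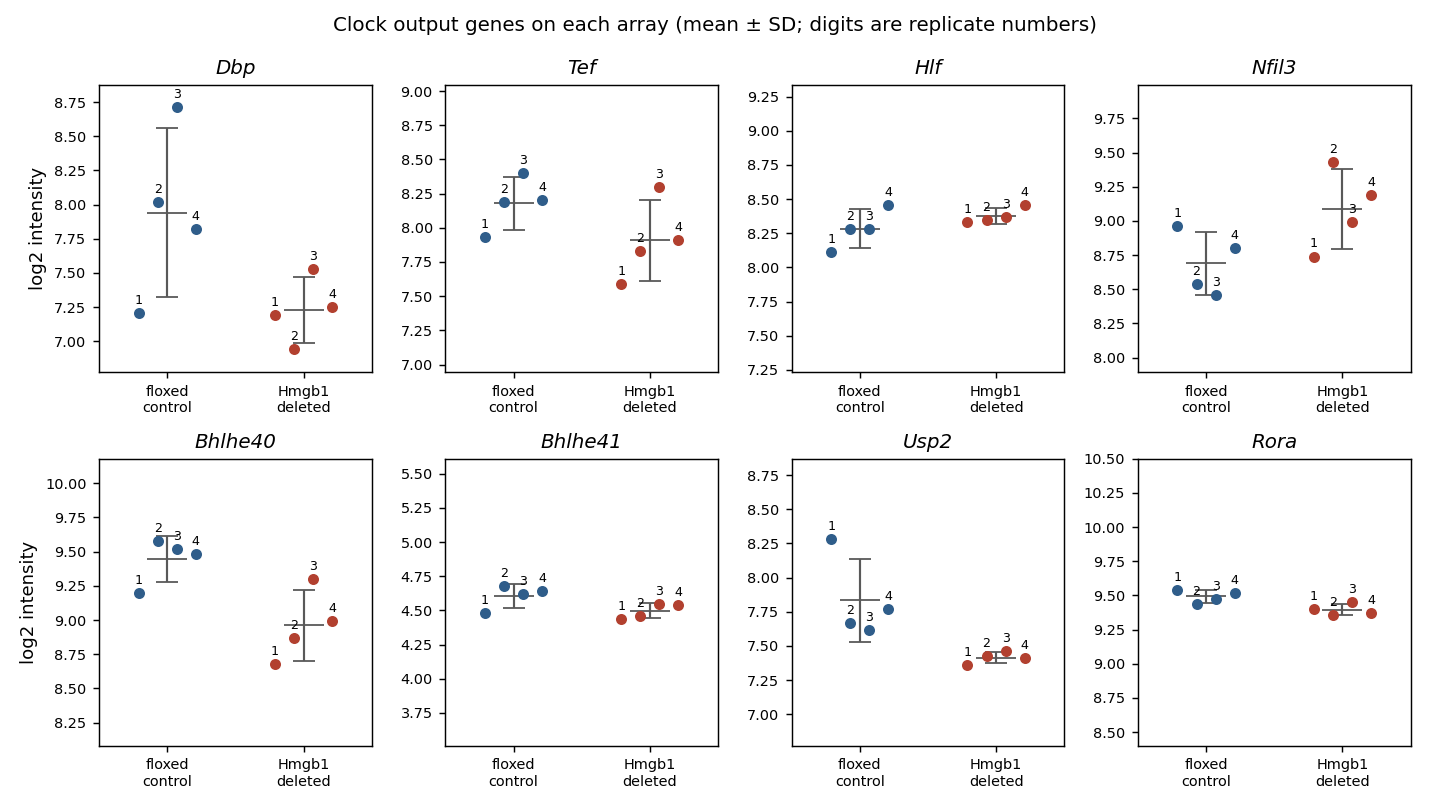
The log2 intensity of each output gene on each array, with floxed controls in blue and Hmgb1 deleted livers in red. Bars give the mean ± SD of 4 arrays, digits give replicate numbers, and each panel spans the same height on the log2 scale. Usp2 is the gene whose groups do not overlap, and control 1 is the lowest or highest control in all 8 panels.

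Dbp, the PAR bZIP factor with the steepest daily rhythm in liver, varied most among the controls. Its log2 intensities were 7.21, 8.02, 8.71 and 7.82 on controls 1 to 4, and 7.19, 6.94, 7.53 and 7.25 on deleted arrays 1 to 4. Controls 2 to 4 lay above all deleted arrays, whereas control 1 lay among them. The group means were 7.94 ± 0.62 (SD, n = 4) in controls and 7.23 ± 0.24 (SD, n = 4) in deleted livers, a log2 fold change of −0.71 (SE 0.25, 95% interval −1.27 to −0.15, limma adjusted p = 0.335). Its controls spanned 1.5 on the log2 scale, a 2.83-fold range, and 99.7% of all genes had a smaller SD among controls. Without control 1 the log2 fold change was −0.96 (limma adjusted p = 0.0377), and without control 3, the highest, it was −0.46 (limma adjusted p = 0.557).

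Tef, the second PAR bZIP factor, also had control 1 lowest and control 3 highest among its controls. Controls 1 to 4 had log2 intensities of 7.93, 8.19, 8.40 and 8.20, and deleted arrays 1 to 4 had 7.59, 7.83, 8.30 and 7.91. Deleted 3 lay within the control range, so the groups overlapped. The log2 fold change was −0.27 (SE 0.14, 95% interval −0.58 to 0.039, limma adjusted p = 0.642). It was −0.40 without deleted 3 and −0.17 without deleted 1, neither past the threshold.

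Hlf, the third of the family, had a slightly higher mean in the deleted livers. The values were 8.11, 8.28, 8.28 and 8.46 on controls 1 to 4 against 8.33, 8.35, 8.37 and 8.46 on the deleted arrays. The highest values of both groups were equal, and control 1 was the lowest of all 8 arrays. The log2 fold change was 0.095 (SE 0.077, 95% interval −0.075 to 0.27, limma adjusted p = 0.875), 0.038 without control 1, 0.15 without control 4 and 0.025 with array weights. Its interval lay above the estimates for Dbp and Tef, but the difference between these genes was not itself tested.

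Nfil3, the D-box repressor, was the other gene with a higher mean in the deleted livers. Its log2 intensities were 8.96, 8.54, 8.46 and 8.80 on controls 1 to 4, and 8.74, 9.43, 8.99 and 9.19 on deleted arrays 1 to 4. Deleted 2 to 4 lay above every control, whereas deleted 1 lay below control 4 and control 1. The means were 8.69 ± 0.23 (SD, n = 4) in controls and 9.09 ± 0.29 (SD, n = 4) in deleted livers, a log2 fold change of 0.40 (SE 0.15, 95% interval 0.070 to 0.73, limma adjusted p = 0.372). Leaving out single arrays moved it between 0.28 (without deleted 2) and 0.51 (without deleted 1), with no adjusted p under 0.05.

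Array by array, Nfil3 tended to be low where Dbp was high. The Pearson correlation of the 2 genes over the 8 arrays was −0.82, and −0.69 after the group means were removed. Dbp and Tef correlated at 0.81 over the arrays and at 0.72 with group means removed. Without control 1, Dbp had −0.83 with Nfil3 and 0.80 with Tef. Tef and Bhlhe40 had the highest correlation, 0.91 (0.94 with group means removed). Some pairs with Usp2 depended on control 1. Dbp and Usp2 had 0.094 over the arrays, −0.79 with group means removed and 0.70 without control 1. Bhlhe41 and Usp2 had 0.12, −0.73 and 0.89 in the same order. These values describe 8 arrays that share their groups and their normalization, and 28 pairs of output genes were computed.

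Bhlhe40, an E-box repressor also known as DEC1, had the smallest p-value of the 8 genes. Controls 1 to 4 had log2 intensities of 9.20, 9.58, 9.52 and 9.48, and deleted arrays 1 to 4 had 8.68, 8.87, 9.30 and 8.99. Only deleted 3 and control 1 crossed. The means were 9.45 ± 0.17 (SD, n = 4) and 8.96 ± 0.26 (SD, n = 4), a log2 fold change of −0.49 (SE 0.13, 95% interval −0.76 to −0.21, limma adjusted p = 0.148). It passed without control 1, at −0.57 (limma adjusted p = 0.0467), and with array weights, at −0.53 (limma adjusted p = 0.0126), where it was 1 of 8 past the threshold, against 2.64% of all genes.

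Bhlhe41, its close relative DEC2, was dim, with only 6.59% of genes at a lower mean, and a dim probe set responds little to a change in RNA. Its values were 4.48, 4.68, 4.62 and 4.64 on controls 1 to 4 and 4.44, 4.46, 4.55 and 4.54 on the deleted arrays. As for Bhlhe40, controls 2 to 4 lay above all deleted arrays and control 1 did not. The log2 fold change was −0.11 (SE 0.064, 95% interval −0.25 to 0.034, limma adjusted p = 0.738). The 2 genes correlated at 0.91 over the arrays and at 0.85 with group means removed.

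Usp2 was the output gene whose groups did not overlap. The deleted arrays were close together, at log2 intensities of 7.36, 7.43, 7.46 and 7.41, and controls 1 to 4 had 8.28, 7.67, 7.62 and 7.77. Every control lay above every deleted array, and control 1 lay far above the other controls. The means were 7.84 ± 0.30 (SD, n = 4) in controls and 7.42 ± 0.042 (SD, n = 4) in deleted livers, a log2 fold change of −0.42 (SE 0.13, 95% interval −0.70 to −0.14, limma adjusted p = 0.223). Without control 1 it was −0.27 (limma adjusted p = 0.0598). In the deleted group only 7.72% of all genes had a smaller SD than Usp2, and in the control group 97.4% did.

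Rora, the activator at ROR elements, varied least. Controls 1 to 4 had values of 9.54, 9.44, 9.47 and 9.52 and deleted arrays 1 to 4 had 9.40, 9.36, 9.45 and 9.37. Deleted 3 lay 0.010 above the lowest control, so the groups overlapped by that 1 array. The log2 fold change was −0.098 (SE 0.056, 95% interval −0.22 to 0.027, limma adjusted p = 0.714). Usp2 and Rora correlated at 0.84 over the arrays, and at 0.62 with group means removed.

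**Figure D2:**
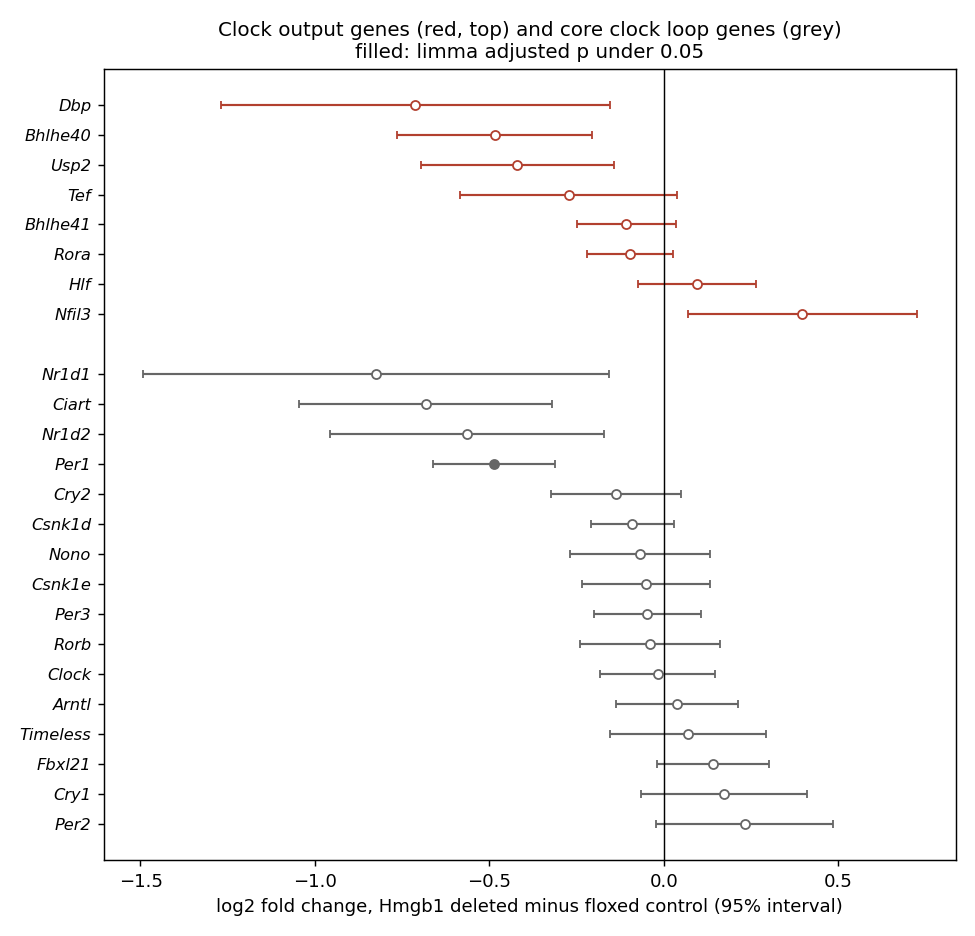
Log2 fold changes, deleted minus control, with 95% intervals from limma, for the 8 output genes (red) and 16 core clock loop genes (grey). Filled points have an adjusted p under 0.05, which holds for Per1 alone. The output genes run from −0.71 for Dbp to 0.40 for Nfil3.

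Control 1 was the lowest control for Dbp, Tef, Hlf, Bhlhe40 and Bhlhe41 and the highest for Nfil3, Usp2 and Rora, so it was at an end of the control range for 8 of 8 genes. Over all genes it was at an end for 76.7%. It lay inside the range of the deleted arrays for 5 of 8 output genes (Dbp, Tef, Nfil3, Bhlhe40 and Bhlhe41), against 46.2% of all genes. For Usp2, Rora and Hlf it lay beyond the other controls on the side away from the deleted arrays. In the deleted group, deleted 3 had the highest value for Dbp, Tef, Bhlhe40, Bhlhe41, Usp2 and Rora (6 of 8, against 30.5% of all genes). Deleted 1 had the lowest value for 6 of 8, including Tef and Bhlhe40 (29.2% of all genes).

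**Figure D3:**
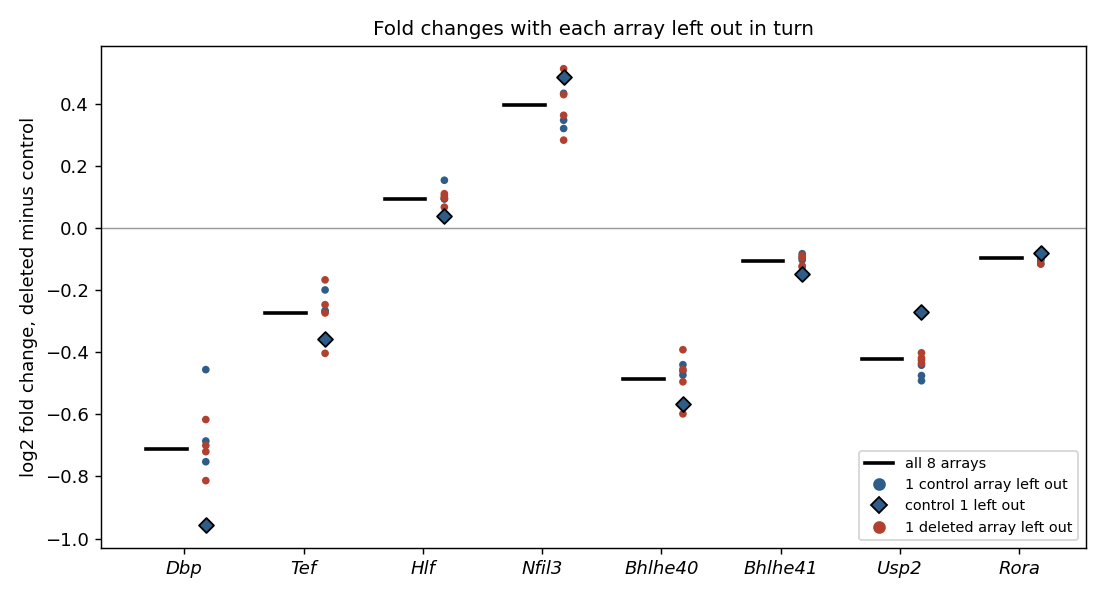
Log2 fold change of each output gene with all 8 arrays (black bars) and with 1 array left out at a time (points; diamonds mark control 1 left out). No gene changes sign. Leaving out control 1 moves Dbp to −0.96 and Usp2 to −0.27.

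Core loop genes were compared on the same arrays. Of 18 listed 16 were measured, 11 with lower and 5 with higher means in the deleted livers, with a median log2 fold change of −0.049. At an unadjusted p of 0.05, 4 of 16 were lower and 0 higher, against 4.53% and 4.93% of all genes. The groups did not overlap for 3 of 16, all lower, against 2.3% of all genes. Per1, a light- and hormone-responsive repressor of the loop, fell by 0.49 on the log2 scale (limma, SE 0.079, adjusted p = 0.0226), from 8.10, 8.23, 8.24 and 8.16 on the controls to 7.61, 7.54, 7.87 and 7.76. It was the 1 core gene of 16 past the threshold, against 0.692% of all genes, and its groups did not overlap. It lost the call with all probe sets tested, with arrays centred on their medians, and without deleted 1, 2 or 4 or control 2, 3 or 4 (limma adjusted p up to 0.0938).

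Ciart, an E-box repressor, had a log2 fold change of −0.68 (limma, SE 0.16, adjusted p = 0.114), and its groups did not overlap. Its values were 7.41, 6.81, 6.72 and 6.94 on controls 1 to 4 and 6.44, 6.02, 6.61 and 6.08 on the deleted arrays, with control 1 highest, as for Usp2. With array weights Ciart passed, at −0.62 (limma adjusted p = 0.0216). The REV-ERB genes Nr1d1 and Nr1d2 had log2 fold changes of −0.82 (limma, SE 0.30, adjusted p = 0.359) and −0.565 (limma, SE 0.18, adjusted p = 0.254), with overlapping groups. Nr1d2 also passed with array weights, at −0.63 (limma adjusted p = 0.0209). Nr1d1 ran from 9.30 on deleted 1 to 11.15 on deleted 3 within the deleted group. Without deleted 1 its log2 fold change was −0.52. The activators Arntl (0.038) and Clock (−0.018) had 95% intervals of −0.14 to 0.21 and −0.18 to 0.15, and their sign changed with single arrays left out.

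**Figure D4:**
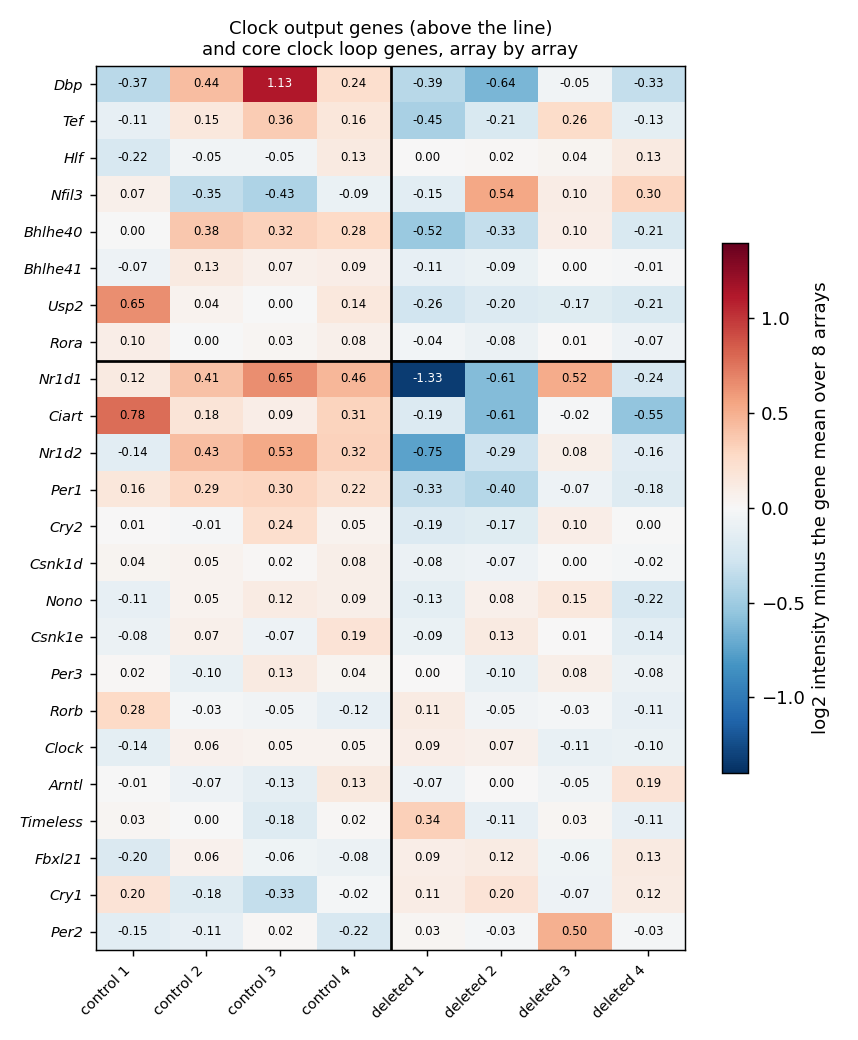
Log2 intensity minus the gene's mean over the 8 arrays, for the output genes (above the line) and the core loop genes (below it), with 1 column an array. Red is above and blue below the gene's mean. Dbp is highest on control 3 (8.71), Usp2 and Ciart on control 1 (8.28 and 7.41), and Nr1d1 is lowest on deleted 1 (9.30).

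Genes of liver metabolism that have been linked to the PAR bZIP factors were taken as a list of 18, of which 15 were measured. In the deleted livers 11 had lower and 4 higher means, with a median log2 fold change of −0.080, and 1 passed, against 0.692% of all genes. At an unadjusted p of 0.05, 2 were higher and 4 lower, against 4.93% and 4.53% of all genes. Ppara, the nuclear receptor that drives fatty acid oxidation, fell by 0.49 (limma, SE 0.088, adjusted p = 0.0367), from 10.53, 10.81, 10.88 and 10.87 on the controls to 10.22, 10.31, 10.41 and 10.19. Its groups did not overlap. It lost the call with all probe sets tested, with arrays centred on their medians and without any 1 array other than control 1 (limma adjusted p up to 0.164). Nr1i3, which encodes the drug receptor CAR, had a log2 fold change of −0.32 (limma, SE 0.091, adjusted p = 0.192). The glutathione transferase Gstt1 had 0.21 and the uridine phosphorylase Upp2 −0.245 (limma adjusted p = 0.352 for each). Alas1, the first enzyme of heme synthesis, had a higher mean by 0.42 (limma, SE 0.17, adjusted p = 0.420). Cyp7a1, the rate-limiting enzyme of bile acid synthesis, had −0.090 with a 95% interval of −0.57 to 0.39. Cyp2c70, a bile acid hydroxylase, had −0.225, and passed without control 1, at −0.335 (limma adjusted p = 0.0394), and with array weights, at −0.32 (limma adjusted p = 0.0345). Alas1, Cyp7a1, Cyp2c70, Arntl and Clock were named after their values were seen.

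For each output gene the 3 genes with the most similar profile over the 8 arrays were found among 9621 brighter genes, by Pearson correlation. They were picked for being the highest, so the values only describe likeness. For Dbp they were Tada1 (0.97), Ogdh (0.96) and Alas2 (0.95), and for Tef Plekha5 (0.97), Trim30d (0.97) and Mettl27 (0.96). Those of Hlf were Ago2 (0.97), Golga5 (0.95) and Eif1ad (0.94). Nfil3 was closest to Cyp2a22 (0.98), Spring1 (0.95) and Ndrg1 (0.95). Bhlhe40 was closest to Acsm1 (0.99), Me1 (0.98) and S100pbp (0.97). Bhlhe41 was closest to Mcl1 (0.9993), Smyd3 (0.98) and Adamts1 (0.98), but its probe set was dim and ran only from 4.44 to 4.68. Usp2 was closest to Ccn2 (0.98), Slc25a22 (0.97) and Tff3 (0.97), and Rora to Ciart (0.96), Lpin1 (0.95) and Ahr (0.95). Ciart was the only core loop gene among these 24. After quantile normalization again the 6 lowest of these correlations were 0.62 for Dbp with Tada1, 0.59 for Dbp with Ogdh, 0.74 for Hlf with Golga5, 0.84 for Hlf with Eif1ad, 0.83 for Bhlhe41 with Mcl1 and 0.83 for Rora with Lpin1.

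Promoter windows were read because several of these genes moved together on the arrays, though not all pairs did. RefSeq windows (GRCm38.p6) of 250 bases before to 50 after a gene's start were held for Dbp, Hlf, Nfil3, Bhlhe41, Usp2, Rora and Npas2 and for 2 starts of Tef. Bhlhe40 was not searched. The E-box CACGTG, which reads the same on both strands, was in 3 of these 9 windows, against 7.15% of all 32851 windows. It lay 127 and 138 bases before the 2 starts of Tef and 153 bases before that of Bhlhe41. These stretches are printed with the E-box in capitals, on the gene's strand, and come from chr15:81802526-81802571 (+), chr15:81811256-81811301 (+) and chr6:145865548-145865593 (−).
Tef, upstream start: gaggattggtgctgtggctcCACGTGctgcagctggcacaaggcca
Tef, downstream start: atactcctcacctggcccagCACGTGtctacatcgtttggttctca
Bhlhe41: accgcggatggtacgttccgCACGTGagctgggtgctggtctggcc

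The ROR element, searched as TNGGTCA on both strands, was in 2 of the 9 windows, those of Nfil3 and of the downstream start of Tef, against 11% of all windows. That of Nfil3 lay on the opposite strand, 12 bases before the start, at chr13:52981040-52981071 (−), and is printed with the element in capitals on the gene's strand.
Nfil3: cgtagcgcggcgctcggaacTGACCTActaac

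The D-box, searched as TTANGTAA on both strands, was in 0 of the 9 windows and in 2.32% of all windows. Among 14 core loop genes with a window, Ciart, Cry1 and Per1 held the E-box. The D-box was in windows of Per3, Rorb and Timeless, and the ROR element in those of Arntl, Cry2 and Per3. The 9 windows of the output genes were rich in G and C, at 60.3% to 81.7% against a median of 52.7% over all windows. A match describes letters in the window and was not tested as a binding site.

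Markers of liver cell types were read on the same arrays. Markers of endothelial cells, sinusoidal and general, were lower in the deleted livers for 10 of 10. Of these, 1 of 10 passed, against 0.692% of all genes. It was the lectin gene Clec4g, named after its value was seen (log2 fold change −0.615, limma adjusted p = 0.0063). At an unadjusted p of 0.05, 7 of 10 were past it, against 9.46% of all genes. The groups did not overlap for 3 of 10, all lower, against 2.3% of all genes. Averaging the probe sets of Clec4g gave −0.265 and ended its call (limma adjusted p = 0.121). The mean of the endothelial list was 9.10 to 9.23 on deleted and 9.33 to 9.48 on control arrays, without overlap. Of the hepatocyte markers 10 of 11 had lower means and 0 passed in limma (2 at an unadjusted p of 0.05, against 9.46% of all genes). Their list means were 12.36 to 12.73 on deleted and 12.71 to 12.76 on control arrays. The low end was deleted 4, and deleted 1 to 3 ran from 12.66 to 12.73. Over all probe sets the highest log2 intensity on deleted 4 was 13.58, against 14.23 to 14.46 on the other arrays. Bright genes, the hepatocyte markers among them, are read near that lower top end on deleted 4. Its part in their low means was not tested. Alb had a log2 fold change of −0.19, of −0.014 without deleted 4 and of 0.0005 after quantile normalization again. Stellate cell markers (8 of 12 lower) ran from 8.17 to 8.28 and from 8.20 to 8.28, and macrophage markers (2 of 10 lower) from 8.67 to 8.81 and from 8.64 to 8.80. Lymphoid and granulocyte markers (7 of 9 lower) were dim, at 5.43 to 5.59 and 5.49 to 5.66. The part of cell type makeup in the differences of the output genes was not tested.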

How the data were processed

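Total RNA (150 ng) was amplified and hybridised to Affymetrix Mouse Gene 1.0 ST arrays, per the labels' protocols. The deposited values are log2 intensities made by the authors with RMA, per the submitters' processing notes (version and genome build: not given in the sources used). Of 35556 probe sets, 21789 carried 1 gene symbol in GEO's platform annotation, 1621 several and 12146 none. Each of 19938 genes was represented by its brightest single-symbol probe set. Deleted and control arrays were compared with limma 3.58.1 in R 4.3.3 (lmFit, eBayes, 2-sided, no covariate, no filter on dim genes), adjusted by Benjamini-Hochberg over all genes, threshold 0.05. Log2 fold changes subtract control from deleted means. Scripts (Python 3.11.15, matplotlib 3.10.9) were tested on simulated arrays. The text names the output genes, Hmgb1, Alb, from each of the clock and cue lists (not the cell type markers) the genes past the threshold and the 4 smallest p-values, and the 3 genes most like each output gene. The members and lists were chosen with earlier results of these data known. Alternatives were another filter, probe set rule, normalization, centring, variance prior, array weights, a replicate block, and each array left out. Arrays give no read depth, so their number limits the precision.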

Additional observations from a re-analysis of the deposited data

Results flagged for a closer look

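Over 64 groups of 4 values, 4 values lay far from the other 3 of their group, where chance gives about 1 in 20, or 3.2. None was an output gene. Alb was 13.26 on deleted 4 against 13.93 to 14.03 on the other deleted arrays. The highest value of any probe set was also lowest on deleted 4, at 13.58 against 14.23 to 14.46 on the other arrays. Clock was 9.30 on control 1 against 9.49 to 9.50 on the other controls. Rbm3, a cold-induced RNA-binding protein, was 9.65 on control 3 against 9.90 to 9.95 on the other controls. Fkbp5, a glucocorticoid-responsive co-chaperone, was 8.02 on deleted 2 against 8.36 to 8.43.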

How the results depend on the processing

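The 8 output genes kept their sign in all 135 values under 17 alternatives. The sign could change only with quantile normalization again, centring, array weights or an array left out. Under the other alternatives their fold changes stayed the same by design, so those signs were fixed in advance. Of the 135 values 4 passed the threshold: Dbp and Bhlhe40 without control 1, and Bhlhe40 with array weights and with the replicate block. The count of output genes past it was 1 with array weights, 1 with the replicate block and 0 to 2 with each array left out. The replicate numbers were not taken as pairs in the main comparison, since the labels name no pairing or batch. Same-numbered arrays deviated together at correlations of 0.45, 0.065, −0.081 and 0.42, and only arrays 1 and 4 correlated best with their own number. Whether same-numbered arrays share a batch was not tested. The count over all genes was 264 after quantile normalization again, 61 with arrays centred on their medians, 526 with array weights, 325 with the replicate block and 37 to 321 with each array left out. For core loop genes it was 0 with all probe sets tested, 0 with centring, 3 with array weights, 3 with the replicate block (Per1, Ciart and Nr1d2 under both) and 0 to 1 with arrays left out. For PAR bZIP targets it was 0 with all probe sets tested, 0 with centring, 2 with array weights and 0 to 2 with arrays left out. Alb changed sign to 0.0005 after quantile normalization again, and Clock to 0.0025 with centring. With arrays left out, 3 genes that had small differences took either sign: Cyp7a1 (−0.32 to 0.053), Arntl (−0.020 to 0.088) and Clock (−0.066 to 0.015). Among the cue genes Fkbp5 passed with the replicate block (limma adjusted p = 0.0322). The causes were not tested. The filter on dim genes removed Bhlhe41 and Hmgb1, which have no value there.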

Other observations

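A list of 13 further E-box output and rhythmic genes held 12 measured ones, with a median log2 fold change of −0.022. Of these, 0 were past the threshold and 2 past an unadjusted p of 0.05, against 9.46% of all genes. The 2 with the smallest p had higher means in the deleted livers and groups that did not overlap, against 3.28% of all genes. They were Wee1, a kinase that delays mitosis, at 0.29 (limma, SE 0.088, adjusted p = 0.226), and Polr1b, an RNA polymerase I subunit, at 0.195 (limma, SE 0.060, adjusted p = 0.241). Tfrc, the transferrin receptor, had 0.18 and Gys2, liver glycogen synthase, −0.18, with overlapping groups. Leaving out single arrays moved Tfrc between 0.11 (without deleted 4) and 0.29 (without deleted 1), and Gys2 between −0.091 (without control 3) and −0.32 (without control 1).

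Of 12 genes that answer glucocorticoid, temperature or feeding cues, 10 were measured, 7 with lower means and 0 past the threshold. At an unadjusted p of 0.05, 3 of 10 were past it, against 9.46% of all genes. Rbm3 had a log2 fold change of −0.36 (limma, SE 0.078, adjusted p = 0.0805) with groups that did not overlap, and passed without control 3, at −0.43 (limma adjusted p = 0.0348), and with array weights, at −0.37 (limma adjusted p = 0.0285). Fkbp5 had −0.61 (limma, SE 0.20, adjusted p = 0.263) and passed without control 2, at −0.82 (limma adjusted p = 0.0413). The kinase Sgk1 had −0.23 and the transcription factor Zbtb16 −0.31, with overlapping groups. Zbtb16 ran from −0.18 without deleted 1 to −0.495 without deleted 3.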
